A study of Mus musculus with 2 samples.

Results

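Mir191 and Mir425 are a pair of neighbouring microRNA (miRNA) genes at the Dalrd3 locus of mouse chromosome 9. They were followed here in 2 small RNA libraries of fetal liver, and they are 2 of the 1973 miRNA genes in the deposited tables. Mir425 was taken from its own row, as reads of the gene's strand. Mir191 has no row of its own, so it was taken from the reads on the strand opposite to row Gm24083, a predicted miRNA gene that covers the same bases in the other direction. Both libraries were made from total RNA of whole liver of healthy B6NCrl mice, a C57BL/6N stock, at embryonic day 15.5, with male and female embryos pooled. Replicate 1 pooled 78 embryos and replicate 2 pooled 62. There was 1 group and no treatment, so the design allows levels, a ratio within each library and a comparison of the libraries, but no contrast between conditions.

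A miRNA gene is transcribed into a long primary RNA, from which Drosha and then Dicer cut a hairpin and a short duplex of a 5p and a 3p arm. One arm is loaded into Argonaute and pairs with messenger RNAs mainly through its seed, bases 2 to 8. miR-191 and miR-425 are known as a pair made from 1 primary transcript in many tissues. miR-191 is often used to normalise miRNA measurements, and in mouse fetal liver erythroblasts it is known to restrain enucleation through Riok3 and Mxi1. miR-425 is known to target the messenger RNA of the natriuretic peptide gene NPPA.

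The hairpins lie within the bases that the counts cover. In RefSeq (GRCm38.p6, plus strand) Mir191 spans chr9:108568319-108568392 and Mir425 spans chr9:108568777-108568861. The 5p and 3p arms are in capitals, in that order.
Mir191: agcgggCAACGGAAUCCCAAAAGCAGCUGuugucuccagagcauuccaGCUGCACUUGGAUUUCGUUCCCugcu
Mir425: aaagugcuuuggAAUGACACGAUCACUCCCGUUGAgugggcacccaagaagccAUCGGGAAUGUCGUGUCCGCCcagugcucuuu

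The mature arms are given next with the seed in capitals, because the seed decides which family a miRNA belongs to. miR-489-3p is added after miR-425-5p since it has the same seed.
mmu-miR-191-5p: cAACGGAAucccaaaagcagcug
mmu-miR-191-3p: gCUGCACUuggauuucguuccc
mmu-miR-425-5p: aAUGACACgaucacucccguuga
mmu-miR-489-3p: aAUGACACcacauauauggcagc
mmu-miR-425-3p: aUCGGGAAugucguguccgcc

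The pair shares a locus but no seed. The 5p arms are both 23 bases long and match at 5 positions when aligned from their first base, 2 of them among the 7 seed positions. Among 1679 mature miRNAs in the RefSeq table, 0 others had the seed of miR-191-5p, miR-191-3p or miR-425-3p, and 1 had that of miR-425-5p, namely miR-489-3p. Mir489 had 0 counts in both libraries, which allows up to 0.495 CPM (counts per 1000000 assigned reads) in replicate 1 and 0.860 CPM in replicate 2. Each of the 4 mature sequences of Mir191 and Mir425 was found in 1 of the 1005 RefSeq hairpins, its own. By RNAfold the Mir191 hairpin had a minimum free energy of -35.0 kcal/mol over 74 bases and the Mir425 hairpin -31.7 kcal/mol over 85 bases. Per base these were -0.473 and -0.373, on either side of the median of -0.406 over all hairpins.

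The place of the pair relative to Dalrd3 depended on the annotation. In RefSeq the Dalrd3 gene spans 108567484 to 108572773 on the plus strand, and both hairpins lie inside it, Mir191 starting 835 bases after the gene's first base. In GENCODE M21 Dalrd3 (ENSMUSG00000019039.14) starts at 108569886, which is 1025 bases after the end of Mir425. There both hairpins lie upstream of Dalrd3, inside the long noncoding RNA gene 4833445I07Rik, at 108567533 to 108569174 on the same strand. Both are within the single exon of its unspliced transcript. In its spliced transcript Mir191 falls in the intron, between exons ending at 108568180 and starting at 108568484, and Mir425 begins 3 bases after the last exon. The hairpins are 384 bases apart. Gm24083 (ENSMUSG00000092915.1), on the minus strand at 108568295 to 108568414, extends 24 bases beyond the Mir191 hairpin on one side and 22 on the other.

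**Figure D1:**
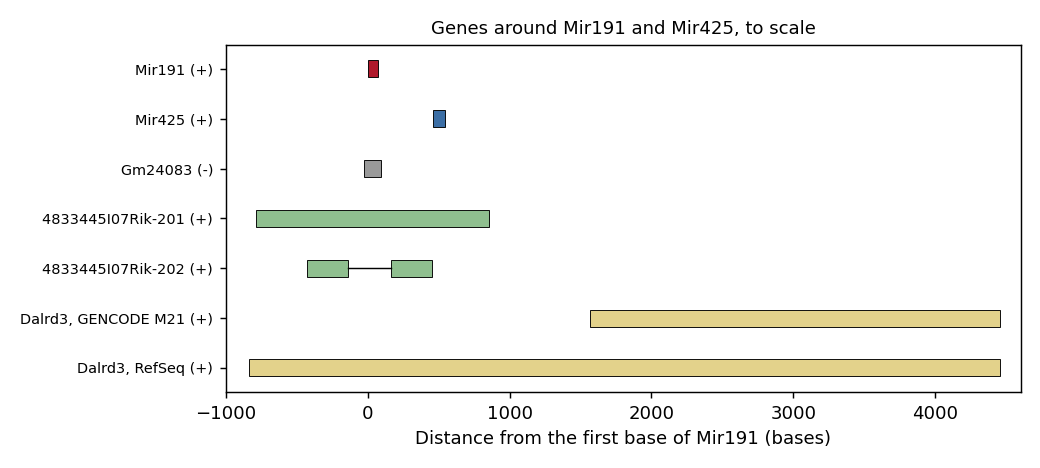
Genes around Mir191 and Mir425, drawn to scale against the distance in bases from the first base of Mir191, with the strand of each in brackets; for 4833445I07Rik boxes are exons and the line an intron, and for Dalrd3 the box is the whole gene span. Gm24083 covers Mir191 on the other strand, and the RefSeq span of Dalrd3 holds both hairpins while the GENCODE M21 span starts 1025 bases after the end of Mir425.

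All reads at each row lay on 1 strand. Row Gm24083 had 25705 reads on the opposite strand and 0 on its own strand in replicate 1, and 17548 and 0 in replicate 2. The opposite-strand share was therefore 100% in both, with an exact Clopper-Pearson 95% lower bound of 99.986% in replicate 1 and 99.979% in replicate 2. Row Mir425 showed the reverse, with 20251 reads on its own strand and 0 on the opposite strand in replicate 1, and 9944 and 0 in replicate 2. A count of 0 allows up to 0.0148% and 0.0302% of the row's reads. These bounds cover counting error only, since amplified reads without molecular identifiers are not independent molecules. A table of same-strand counts alone would thus list the Mir191 locus at 0.

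Gm24083 was not alone in this. In all, 24 rows had at least 10 opposite-strand reads summed over both libraries, and in 18 of them GENCODE M21 places another miRNA gene on that strand which has no row of its own. All 9 rows with at least 1000 such reads were of that kind. Gm24083 was the fifth of them by level and held 4.84% of opposite-strand reads in replicate 1 and 5.52% in replicate 2. The 3 highest of the others were the row of Mir142b, which overlaps the leukocyte gene Mir142 (34826 ± 4064 CPM, SD, n = 2), and rows Gm24321 and Gm25252, which overlap Mir409 (22899 ± 2899 CPM) and Mir376a (10890 ± 193 CPM) of the imprinted Dlk1-Dio3 domain.

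Both members were well expressed. Levels were computed over all reads assigned to a miRNA gene on either strand, 6060619 in replicate 1 and 3487976 in replicate 2, and not divided by length, since a read covers a whole mature miRNA. Mir191 stood at 4241 CPM in replicate 1 (exact 95% interval 4190 to 4293) and 5031 CPM in replicate 2 (4957 to 5106). Mir425 stood at 3341 CPM in replicate 1 (3296 to 3388) and 2851 CPM in replicate 2 (2795 to 2907). Mir191 was above Mir425 in both libraries, and their levels did not overlap. As means, Mir191 was at 4636 ± 558 CPM and Mir425 at 3096 ± 347 CPM (SD, n = 2), or 0.464% and 0.310% of assigned reads. These were 37.9 and 25.3 times the median of 122 CPM over the 371 features with at least 10 counts in both libraries, where a feature is 1 row on 1 strand. Summed, the pair came to 7583 and 7882 CPM in replicates 1 and 2, a mean of 7732 ± 212 CPM. The counts are per row and do not separate the 5p from the 3p arm. In GENCODE M21 the row read for Mir191, Gm24083, spans 120 bases, and Mir425 spans 85.

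Of the 3946 features, 760 had at least 1 count in either library. Reads with several mapping places were not counted, so genes that share a mature arm with another gene may rank too low. Among all 3946 features Mir191 ranked 49 in replicate 1 and 47 in replicate 2, and 48 by its mean. Its nearest neighbours by mean were Mir18 of the miR-17-92 cluster (4824 ± 281 CPM), Mir381 of the Dlk1-Dio3 domain (4756 ± 396 CPM), the cell cycle miRNA gene Mir16-1 (4447 ± 229 CPM) and Mir423 (4338 ± 282 CPM). All 4 differed from Mir191 by less than the spread between its libraries. In replicate 1 Mir191 was the second lowest of these 5, above Mir423 at 4139 CPM, and in replicate 2 it was the second highest, below Mir381 at 5036 CPM.

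Mir425 ranked 60 and 61 in the libraries and 60 by its mean. Below it, Mir192, a miRNA gene of liver and gut, was at 3152 and 2855 CPM in replicates 1 and 2, a range that overlapped that of Mir425. Its neighbours above, Mir299a of the Dlk1-Dio3 domain (3597 ± 241 CPM) and Mir130b (3484 ± 130 CPM), were higher in both libraries than Mir425 in either. Mir351, next below Mir192 and a neighbour of Mir322, was lower in both libraries, at 2510 and 2345 CPM.

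**Figure D2:**
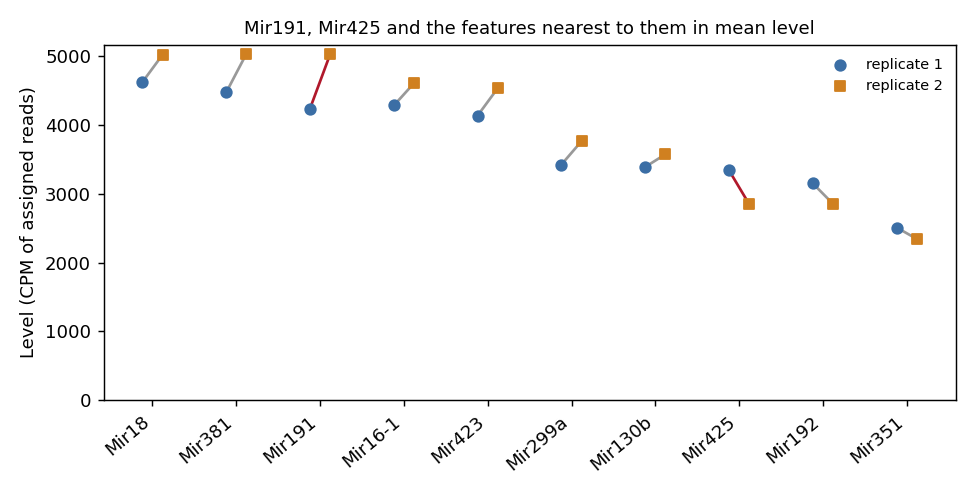
Level in CPM (y axis, from 0) of Mir191, Mir425 and the 2 features just above and below each by mean level (x axis), with circles for replicate 1, squares for replicate 2 and a line joining them, red for Mir191 and Mir425. Mir191 runs up from 4241 to 5031 CPM and Mir425 down from 3341 to 2851 CPM.

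The leading miRNA was the one known for liver. Mir122, the main miRNA gene of hepatocytes, ranked 1 at 166348 and 153352 CPM in replicates 1 and 2. Of 3 neural genes, Mir124a-1 and Mir9-2 had 0 counts in both, and Mir9-1 had 7 counts (1.15 CPM) in replicate 1 and 0 in replicate 2. Reads with several mapping places are outside the gene counts, and these 3 genes are numbered copies. Whether their mature arms occur in other hairpins was not looked up. Their low counts therefore cannot show that neural miRNAs were absent. The erythroid genes did not move together: Mir451a was at 17022 and 8037 CPM in replicates 1 and 2, Mir144 at 7095 and 8104 CPM, and Mir486 at 652 and 744 CPM. Row Mir486 overlaps another miRNA gene on its opposite strand. Whether the 2 share a mature arm was not looked up, so the level of Mir486 may leave out reads. Skeletal muscle Mir206 was at 1304 and 2388 CPM. In whole tissue, fewer cells of a type and less RNA per cell cannot be told apart, and the part of cell makeup in the results on Mir191 and Mir425 was not tested. A chi-square over features, at 75.1 per degree of freedom, showed that the tables were not 1 library deposited again.

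The members differed between the libraries in opposite directions. The log2 ratio of replicate 2 over replicate 1 was 0.25 for Mir191 (1.19-fold higher in replicate 2), which passed the exact binomial test on counts (Benjamini-Hochberg adjusted p = 5.41e-67). For Mir425 it was -0.23 (1.17-fold lower in replicate 2), which also passed (exact binomial test, adjusted p = 5.29e-37). That test covers counting error and compares these 2 libraries, not conditions. It called 38.8% of the 480 features tested, 20.6% higher and 18.1% lower in replicate 2, and 63.1% of the 195 features of at least 100 mean CPM, so being called is common at this depth.

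Against the spread of all miRNAs both differences were moderate. The log2 ratios of the 195 features of at least 100 mean CPM had an SD of 0.202 and a median of 0.02. Mir191 lay 1.23 SDs above 0 and Mir425 1.12 SDs below it. In that set 15 features lay further up than Mir191 and 15 further down than Mir425. Among the 94 features of at least 1000 mean CPM the numbers were 7 and 4. By log2 ratio, the features of that level most like Mir191 over these 2 libraries were Mir378a (0.25), Mir142 (0.24) and the cartilage-linked Mir140 (0.28). The most like Mir425 were Mir409 (-0.26), Mir342 (-0.20) and Mir100 (-0.19). With 2 libraries this likeness rests on a single ratio per gene.

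**Figure D3:**
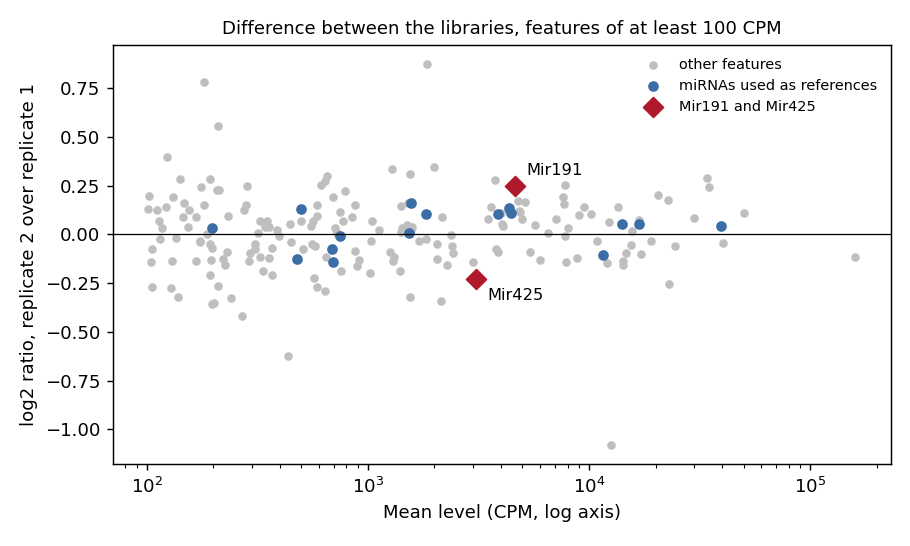
Log2 ratio of replicate 2 over replicate 1 (y axis) against mean level in CPM (x axis, log scale) for the 195 features of at least 100 mean CPM. Red diamonds are Mir191 at 0.25 and Mir425 at -0.23, blue points are 16 other miRNAs in use as references, and these lie no further than 0.16 from 0.

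Since miR-191 serves as a normaliser, other miRNAs in such use were set beside the pair. Of 23 listed reference genes, 23 were tested, and 9 were higher in replicate 2, 3 were lower and 11 were not called, against 38.8% called over all features. Every called one was at 100 mean CPM or more, where 63.1% of all features were called. The 16 of at least 100 mean CPM had a median absolute log2 ratio of 0.10, beside 0.12 for all features of that level. Each of the 16 had a smaller absolute ratio than Mir191 and than Mir425. So had most features: of all 195 at that level, 31 lay at least as far from 0 as Mir191 and 36 as Mir425, themselves included. The furthest of the 16 references was Mir361 at 0.16, from 1480 CPM in replicate 1 to 1649 CPM in replicate 2. The abundant Mir26b, in an intron of Ctdsp1, went from 38929 to 40101 CPM (0.05). Mir423 and Mir16-1, at nearly the level of Mir191, were at 0.13 and 0.11. Mir107 (1539 and 1544 CPM) and Mir16-2 (751 and 745 CPM) were each within 0.01 of 0. Mir16-1 and Mir16-2 share a mature arm, and reads with several mapping places are outside the gene counts. Their levels may thus leave out miR-16 reads. Copies of the other numbered references, such as Mir103-1 and Mir103-2, were not looked up. Of the references below 100 mean CPM, Mir103-1 (-0.45) and Mir24-1 (-0.251) lay further from 0 than Mir191. Mir26a-2 (0.234) lay further from 0 than Mir425. None of these was called, and the other references below 100 mean CPM lay nearer 0 than either member.

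The ratio within the pair needs no library scaling, and it differed too. Mir191 had 1.27 times the reads of Mir425 in replicate 1 (exact 95% interval 1.25 to 1.29) and 1.76 times in replicate 2 (1.72 to 1.81). As a share of the pair's reads Mir191 took 55.9% and 63.8%. The mean ratio was 1.52 ± 0.350 (SD, n = 2). The ratio was 1.39 times as high in replicate 2, a log2 difference of 0.48 (Fisher's exact test, two-sided, p = 7.15e-99). Fisher's test and the intervals cover counting error only, not the spread between pools. Among 123 neighbouring pairs of miRNA genes, at most 10 kb apart on 1 strand, that test called 37.4% after adjustment, and 48.5% of the 68 pairs with both genes at 100 mean CPM or more. In those 68 the median absolute log2 difference was 0.13, and Mir191 with Mir425 ranked 2, after the erythroid Mir144 and Mir451a at 1.27. These neighbouring pairs were collected after the ratio had been seen.

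In level, the pair was among the more even of the loci on a list. In a list of 28 loci of 2 neighbouring miRNA genes, 23 had at least 10 counts of both genes in both libraries. The gene with more reads exceeded the other by a median of 13.8-fold, and by up to 407-fold for Mir99a over Mirlet7c-1. Mir191 over Mir425, at 1.5-fold as a geometric mean, was the second most even, after Mir497 over Mir195a of the cell cycle family at 1.11-fold. Mir451a over Mir144 (1.54-fold) and Mir181c over Mir181d (1.60-fold) were the other 2 of the 4 loci under 2-fold. Evenness was more common among the 68 neighbouring pairs with both genes at 100 mean CPM or more. There the median was 4.01-fold, and 16 pairs were under 2-fold. Mir143 over Mir145a, a smooth muscle locus, was at 72.7-fold. Reads with several mapping places are tallied apart from the gene counts. A mature arm of the lower gene also occurs in 1 other RefSeq hairpin for Mir29b-1 (Mir29b-2), Mir30c-1 (Mir30c-2) and Mirlet7c-1 (Mirlet7c-2). The same holds for the lower genes Mir16-1, Mir16-2, Mir194-1, Mir194-2, Mir181a-2 and Mir181b-1. For Mir199a-2 it holds with 2 other hairpins. Mir143, Mir145a, Mir30b and Mir30d had no mature arm in the RefSeq sequences, so copies of theirs could not be looked up. The part of such copies in the unevenness was not tested.

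The even loci were not alike in how steady their ratio was. Mir497 over Mir195a had a log2 ratio of 0.15 in both libraries, from 1192 over 1071 reads in replicate 1 and 662 over 598 in replicate 2. Mir15a over Mir16-1, a 2.03-fold locus, changed by less than 0.01. Mir191 over Mir425 went from 0.34 to 0.82, and Mir451a over Mir144 from 1.26 to -0.01. By absolute change the pair was 6 of the 23 loci, and of the 5 ahead of it 4, namely Mir29a with Mir29b-1, Mir34c with Mir34b, Mir181a-1 with Mir181b-1 and Mir206 with Mir133b, each had a gene with under 100 reads in both libraries. The same gene was the higher in both libraries at 22 of 23 loci, the exception being Mir144 with Mir451a.

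**Figure D4:**
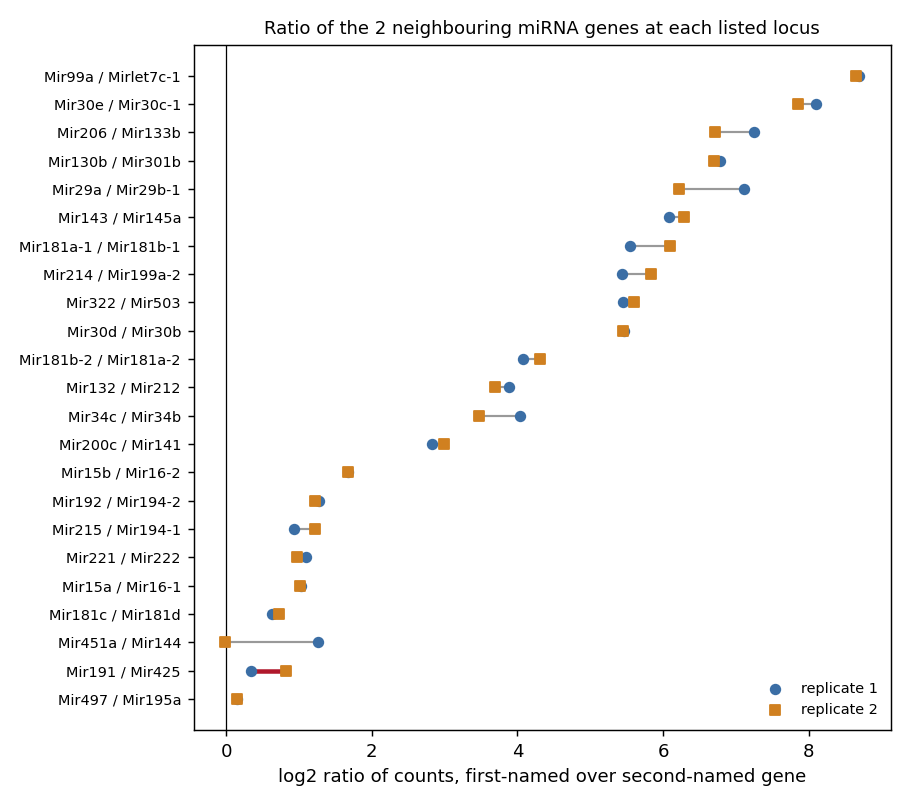
Log2 ratio of counts of the first-named over the second-named gene (x axis) at the 23 loci of 2 neighbouring miRNA genes (y axis), circles for replicate 1, squares for replicate 2, ordered by their mean. Mir191 over Mir425, in red, moves from 0.34 to 0.82 near the even end, while Mir497 over Mir195a stays at 0.15.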

How the data were processed

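The authors deposited, for each of 2 small RNA libraries, a table of whole-number read counts per miRNA gene in 3 columns: both strands, the gene's strand and the opposite strand. Per the text deposited with the tables, reads were counted on mm10 with annotation release M4. Aligner and counter: not given in the sources used here. Nothing in the labels says more than that the libraries are separate pools, numbered as biological replicates.

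Of 1973 rows, 1894 were matched by stable identifier to GENCODE M21 on the same build, and 79 were not. Rows were split by strand, and the opposite strand was named after an M21 miRNA gene lying there. CPM is counts per 1000000 assigned reads. Total reads were 14666947 and 8454226. Unmapped (23.9% and 21.4%) and other unassigned reads stayed out. edgeR 4.0.16 gave TMM sizes, and DESeq2 1.42.0 alternative size factors. Features with at least 10 counts summed were compared by a two-sided exact conditional binomial test with Benjamini-Hochberg adjustment over all of them and a threshold of 0.05, since 1 group leaves edgeR no contrast. Of 480 simulated features for that comparison, 1.07% of 280 unchanged ones were called. Calls covered 38.2% of 68 changed 1.2-fold, 54.0% of 63 changed 1.5-fold and 72.5% of 69 changed 2-fold. The simulated counts held counting error only, on unscaled library sizes, with no further spread between pools. The simulation therefore cannot show how often unchanged features of real pools are called. Intervals are Clopper-Pearson. Hairpins were folded with RNAfold 2.7.2. Genes named are the members, those of the lists, the nearest 2 above and below each member by level, the nearest 3 by log2 ratio at 1000 mean CPM or more, and the 3 other rows with most opposite-strand reads. The members and lists were chosen with earlier results of these data known. Mir489 was named for its seed.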

Additional observations from a re-analysis of the deposited data

Results flagged for a closer look

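Reads that entered no count were frequent. Those mapped outside the annotated miRNA genes made up 5.40% of all reads in replicate 1 and 6.23% in replicate 2. Reads mapped to several places made up 29.3% and 31.1%. Both stand out because they are a signal in data that entered no comparison, well above what a count of 0 allows. The deposited tables give them as totals, so the share that comes from Mir191 or Mir425 was not tested.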

How the results depend on the processing

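Under the other settings both members kept the direction and call of their difference between the libraries. Their mean levels moved by less than 1 SD of the libraries under other scalings and feature sets. With 1 of 2 libraries left out, such a move is under 1 SD by construction. The ratio needs no scaling, and unstranded counts gave the same ratio because neither row had reads on its other strand. Its dependence on the processing was therefore not tested. The number of features called, 186 of 480, ranged from 166 of 336 with at least 50 counts summed to 188 of 480 by total reads, and was 174 of 760 with no minimum beyond 1 count. With levels ranked among same-strand counts plus the Gm24083 opposite strand, Mir191 ranked 44 and Mir425 ranked 55, because fewer features were ranked. With 1 library left out, Mir191 ranked 47 to 49 and Mir425 60 to 61. Over other scalings, count minimums and feature sets, the log2 ratio of Mir191 lay between 0.24 and 0.26 (adjusted p from the exact binomial test 2.76e-71 to 5.29e-61) and that of Mir425 between -0.24 and -0.22 (1.01e-40 to 1.59e-34). No paired analysis was possible because there was 1 group. With 2 libraries the SDs are imprecise, and the difference in the ratio of Mir191 to Mir425 was seen once, between these pools.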
